A study of Homo sapiens with 4 samples.

Results

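Lysosomal enzymes and membrane proteins, together with CD68, were examined in NB4 cells after knockdown of CEBPG. The group was a list of 41 named genes, chosen with earlier results of these data known. All 41 were found among the 16504 gene symbols of the deposited expression table, as 81 RefSeq transcripts whose values were summed per gene. The list held 7 proteins of the lysosomal membrane, 10 proteases, 9 glycosidases, 5 sulfatases, 6 proteins that handle lipids, progranulin, and 3 genes that govern or use the lysosome (TFEB, TFE3 and SQSTM1).

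NB4 is an acute promyelocytic leukemia cell line, and CEBPG encodes a CCAAT/enhancer-binding protein (CEBP), which binds DNA through a basic leucine zipper. RNA-seq covered 4 libraries: 2 of NB4 control cells and 2 of NB4 cells with CEBPG knockdown. According to the study, the CEBPG short hairpin RNAs (shRNAs) were delivered in the lentiviral vector pLKO.1-puro and the control cells were shRNA controls, whose construct is not given in the sources used here. Infected cells were selected with puromycin as stable lines. The knockdown was made with a single hairpin, read here from the number 3 in its label, which is an assumption. No label or method stated that the 2 libraries of a group came from separate cultures, so the p-values below measure only the spread between these libraries, which may be technical.

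The lysosome is an acidic organelle in which hydrolases break down proteins, glycans, glycosaminoglycans and lipids. A proton pump keeps it acidic, heavily glycosylated membrane proteins line it, and mannose 6-phosphate tags bring most soluble enzymes to it. Many of its genes carry an E-box, CACGTG, near the start site, which the related factors TFEB, TFE3 and MITF bind when nutrients are short. CD68 is a lysosomal membrane glycoprotein of the LAMP family that is abundant in macrophages and is widely used as their marker.

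Levels are given as FPKM (fragments per kilobase of transcript, scaled to the mapped fragments of a library), summed over the transcripts of a gene, for control 1, control 2, knockdown 1 and knockdown 2 in that order. Differences are log2 fold changes, knockdown minus control, on log2(FPKM + 1) with their standard error (SE), a scale that understates the change of low genes. A gene was called where its adjusted p was under 0.05 in limma, with adjustment over the 10968 genes that had a mean of at least 1 FPKM. CEBPG itself (chr19:33373709-33382686, GRCh38) stood at 17.1 and 18.1 FPKM in control and at 6.91 and 7.96 FPKM in knockdown libraries. Its mean in knockdown cells was 42.2% of that in control cells (log2 fold change -1.14, SE 0.082, adjusted p = 0.000836). Column sums ran from 346170 to 367105 FPKM, and Pearson's r of log2 values across genes was 0.994 within control, 0.993 within knockdown and 0.983 to 0.985 between groups. Since read counts were absent from the table, sequencing depth is not known.

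The cells were checked against marker lists. Of 20 monocyte and macrophage markers, 12 were measured and 11 of these, CD14, CD163, CSF1R, MRC1 and ITGAM among them, stayed under 1 FPKM in every library. Lysozyme (LYZ) was the one tested, at 20.1, 18.1, 15.0 and 15.5 FPKM, and was lower in knockdown (log2 fold change -0.30, adjusted p = 0.029). The promyelocytic label was not borne out by its own markers: 5 of 11 genes of promyelocytic granules and myeloid cells, PRTN3 and AZU1 included, were under 1 FPKM in every library, and SPI1 alone exceeded 10 FPKM in all 4. CFD and KIT of that list were called higher (KIT passed the filter only through its knockdown libraries), and its summed level ran from 36.2 to 37.8 FPKM in control and from 46.2 to 47.1 FPKM in knockdown libraries. Of 19 erythroid markers, 18 exceeded 10 FPKM in every library, among them HBA1, HBA2, HBG1, HBG2, HBE1, HBZ, GYPB, GYPC, TFRC, GATA1, KLF1, TAL1, NFE2, ALAS2, ANK1 and RHAG. The erythroid list summed to 8472 to 8960 FPKM in control and 9341 to 9912 FPKM in knockdown libraries, with 3 genes called higher and 4 lower. Over all genes tested, 10.9% were called higher and 9.99% lower. In bulk RNA, a change in the share of a cell type and a change in RNA per cell cannot be told apart, and the part of these marker levels in the results on lysosomal genes was not tested.

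Among the lysosomal genes, more were higher than lower after CEBPG knockdown, and both directions were present among the membrane proteins, the proteases and the lipid-handling proteins. CD68, the protease CTSA (cathepsin A, also called protective protein) and the autophagy receptor SQSTM1 (p62) rose most, to 2.33, 2.00 and 1.80 times their control means. LAMP2 rose while its sister protein LAMP1 fell, and the lipid-cleaving enzyme PPT1 and the protease CTSL (cathepsin L) fell as well. Of the 41 genes, 38 passed the filter. Of these, 18 (47.4%) were called, beside 20.9% of all genes tested. They divided into 14 higher, where 10.9% of all genes were called higher, and 4 lower, where 9.99% of all genes were called lower. The list was chosen with earlier results of these data known, so these shares are no independent evidence of an excess. The median log2 fold change of the 38 was 0.18, beside 0.015 for all genes tested, and without CD68 it was 0.18 with 17 of 37 called. The 2 libraries of one group did not overlap with those of the other for 30 of the 38 genes (24 higher and 6 lower), while 64.8% of all genes tested had no overlap. An absence of overlap was thus the usual outcome, also where it is given for single genes below. The changes were small in most members: 4 exceeded 0.5 in absolute log2 fold change, and 1, CD68, exceeded 1.

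The number of calls depended on single libraries. It was 12 without control 1, 11 without control 2, 7 without knockdown 1 and 6 without knockdown 2, and these fits leave 1 library in a group whose spread is assumed to match that of the other. The share of all genes called fell as well, to 17.6%, 14.7%, 7.52% and 7.64% in the same order. CD68, CTSA, SQSTM1, LAMP2, LAMP1 and PPT1 were called in each of these 4 fits. Another fit tested single transcripts and kept only the most abundant of each gene. In it CD68 alone of the 38 genes was called, as were 16 of 10751 genes in all. LAMP1, with 1 transcript and an unchanged log2 fold change of -0.50 (SE 0.053), was not called there in limma (adjusted p = 0.0688). A call lost in that fit is thus not by itself evidence about transcripts. With no filter on low values 8 of the 41 were called, beside 5.34% of all genes. ARSA passed the filter only through its knockdown libraries. A higher share of calls among better expressed genes was seen in the table at large: 16.5% of genes between 1 and 10 FPKM were called, with 4 of 13 members, and 25.6% of genes between 10 and 100 FPKM, with 13 of 22 members. At 100 FPKM or more, 22.8% of genes and 1 of 3 members were called.

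**Figure D1:**
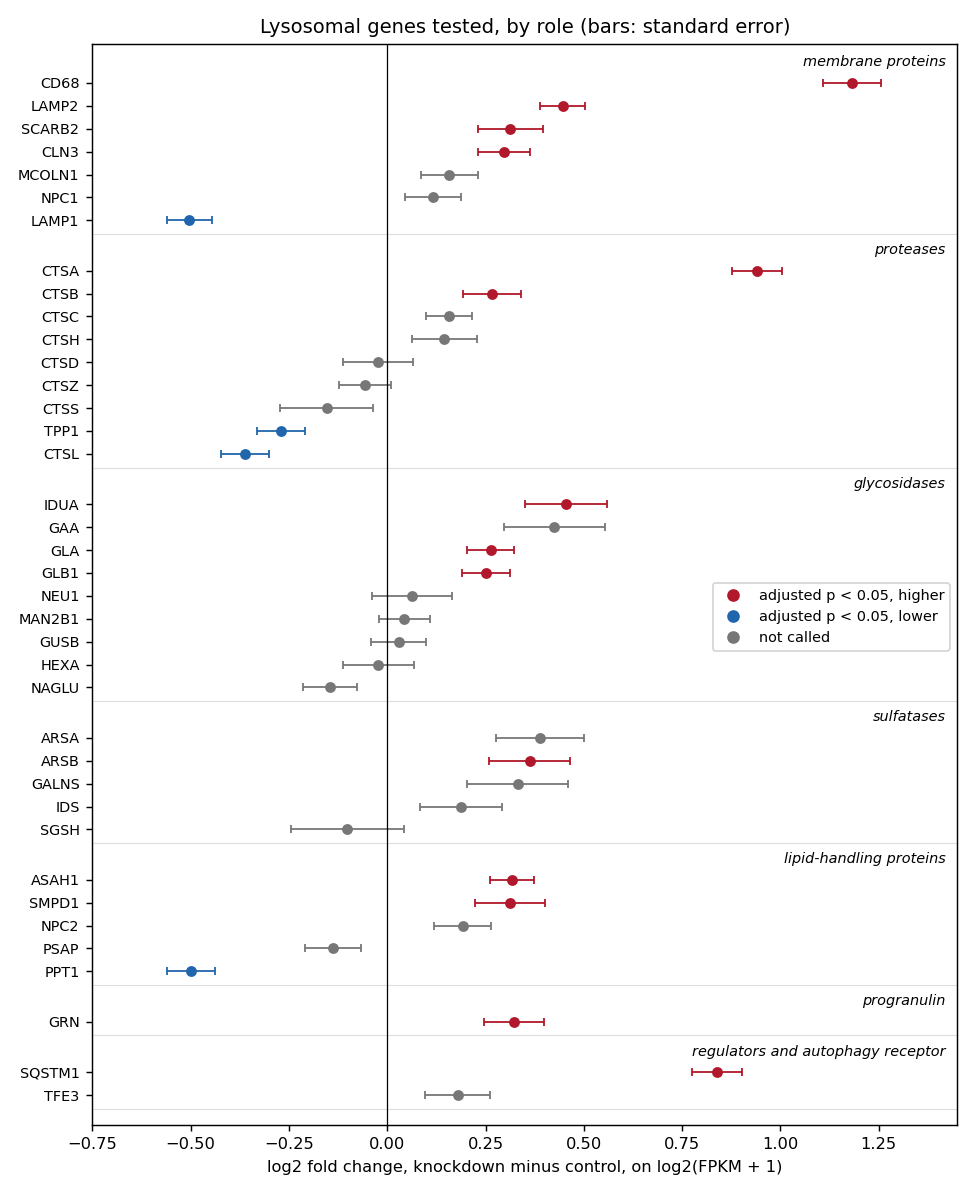
Log2 fold change on log2(FPKM + 1), knockdown minus control, of the 38 lysosomal genes tested, grouped by role; points are estimates from 2 against 2 libraries, bars are standard errors and colour marks calls. CD68 at 1.18, CTSA at 0.94 and SQSTM1 at 0.84 lie apart on the right, and LAMP1, PPT1, CTSL and TPP1 are the 4 genes called lower.

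**Figure D2:**
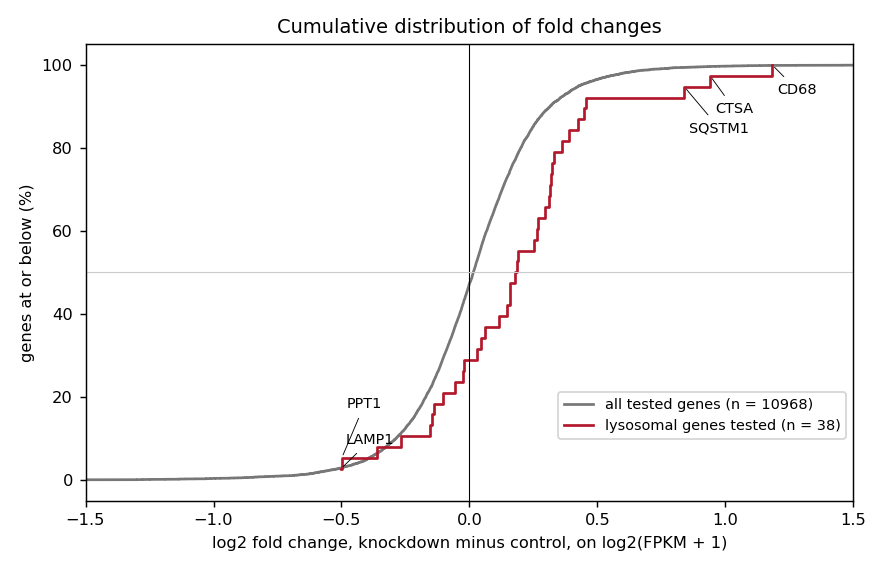
Cumulative share (%) of genes at or below each log2 fold change, knockdown minus control, for the 38 lysosomal genes and for all 10968 genes tested. The curve of the lysosomal genes lies to the right over most of its course, with a median of 0.18 beside 0.015. The list was chosen with earlier results of these data known.

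The start-site sequences of 4 genes are shown, since they belong to the gene that rose most (CD68, which holds no E-box), one that rose with an E-box (CTSA), one that fell with several (LAMP1) and one that was not called with a pair of them (MCOLN1). Each is the 250 bases upstream of the first transcribed base, 5′ to 3′ on the coding strand, which is the plus strand in all 4, from the RefSeq promoter table on GRCh38.p14. They lie at chr17:7579388-7579637, chr20:45891085-45891334, chr13:113296989-113297238 and chr19:7522374-7522623 in that order. Capitals mark the E-box CACGTG, its extended form TCACGTGA, and the CEBP motif TTGCNNAA or its reverse complement.
CD68: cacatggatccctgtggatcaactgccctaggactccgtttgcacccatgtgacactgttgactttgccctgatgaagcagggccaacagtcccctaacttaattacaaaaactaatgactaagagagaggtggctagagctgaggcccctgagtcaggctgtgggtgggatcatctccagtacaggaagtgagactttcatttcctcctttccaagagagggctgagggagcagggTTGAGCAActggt
CTSA: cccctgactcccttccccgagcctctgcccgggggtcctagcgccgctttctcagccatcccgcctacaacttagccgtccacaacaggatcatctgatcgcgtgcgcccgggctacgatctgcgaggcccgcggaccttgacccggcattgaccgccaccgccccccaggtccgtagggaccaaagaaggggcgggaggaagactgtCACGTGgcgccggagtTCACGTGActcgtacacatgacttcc
LAMP1: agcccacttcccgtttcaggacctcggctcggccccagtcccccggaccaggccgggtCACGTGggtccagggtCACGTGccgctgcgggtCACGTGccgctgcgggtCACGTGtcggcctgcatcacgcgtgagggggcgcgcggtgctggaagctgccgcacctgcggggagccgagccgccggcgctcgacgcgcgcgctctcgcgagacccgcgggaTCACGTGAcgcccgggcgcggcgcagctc
MCOLN1: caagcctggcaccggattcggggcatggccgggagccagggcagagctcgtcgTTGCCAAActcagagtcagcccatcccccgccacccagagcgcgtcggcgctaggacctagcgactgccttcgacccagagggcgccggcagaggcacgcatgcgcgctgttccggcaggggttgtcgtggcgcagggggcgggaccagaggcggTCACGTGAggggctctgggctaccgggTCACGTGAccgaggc

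Of the 41 genes, 31 were in the promoter table and 30 had an entry at the start of the main transcript. The E-box CACGTG, which reads the same on both strands, was in 8 of these 30 (26.7%), beside 7.99% of 14473 promoters of the same length and 9.67% of the 7826 that belonged to genes tested. The extended form TCACGTGA, which contains the E-box and is also the same on both strands, was in 5 of the 30 (16.7%), LAMP1, MCOLN1, CTSA, GAA and GALNS, beside 1.41% of all and 2.1% of tested promoters. Letters linked to the CEBP family were searched on both strands too, as was the CCAAT box, which is counted apart from them. TGATGNAA, a composite of CEBP and ATF sites, was in 0 of 30, beside 2.11% of all and 0.971% of tested promoters. TTGCNNAA was in CD68 and MCOLN1 alone (6.67%), beside 6.96% of all and 5.49% of tested promoters, and CCAAT in 8 of 30 (26.7%), beside 35.4% and 36.8%. A match of letters is a description and marks no bound site.

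Genes with an E-box were found in every class of response. Of the 10 genes called higher with a promoter entry, CTSA and CLN3 held one, and of the 4 called lower, LAMP1 did. LAMP1 held the most, 5 copies, of which 4 are core letters in near repeats and 1 is the extended form from -29 to -22, where -1 is the base just before the start. CTSA held 2, the nearer from -26 to -19 in extended form. MCOLN1, GAA and GALNS held 2 each, while CTSD and NEU1 held 1 each, and none of these 5 was called.

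**Figure D3:**
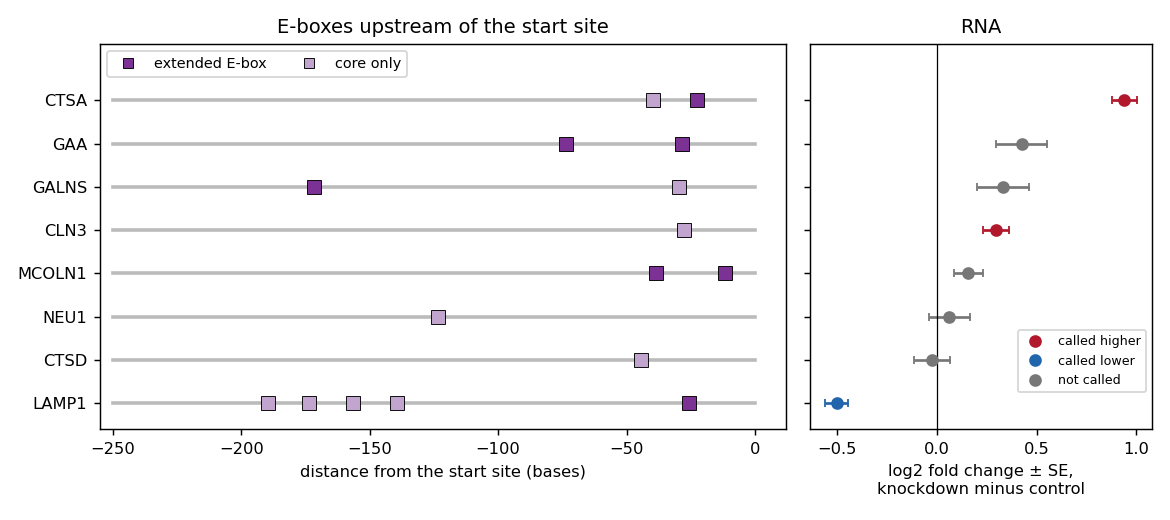
Left, E-boxes in the 250 bases upstream of the start site of the 8 lysosomal genes that hold one, by distance from the start in bases, with extended and core forms in different shades; right, log2 fold change, knockdown minus control, with its standard error. LAMP1, with 5 copies, was called lower, and CTSA, with 2, was called higher.

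Of the 7 membrane proteins, 4 were called higher and 1 lower, beside 10.9% and 9.99% of all genes tested. CD68 (chr17:7579638-7582111, plus strand) stood at 20.6 and 18.5 FPKM in control and at 47.3 and 43.9 FPKM in knockdown libraries. Both knockdown libraries lay far above both controls (19.6 ± 1.44 against 45.6 ± 2.42 FPKM, SD, n = 2 each). The log2 fold change was 1.18 (SE 0.074, adjusted p = 0.000638), which ranked 17 of the 10968 genes from the highest. Of its transcripts, NM_001251 held 88.6% to 93.3% of the total in each library, at 18.2, 17.1, 42.4 and 40.97 FPKM, and NM_001040059 stood at 2.34, 1.47, 4.89 and 2.92 FPKM. Both were thus higher in each knockdown library than in either control, although the division of reads between transcripts of one gene is uncertain. The 11 monocyte and macrophage markers measured besides LYZ stayed under 1 FPKM in these same libraries, but only 12 of the 20 listed were measured.

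LAMP1 and LAMP2 are the most abundant proteins of the lysosomal membrane, and they moved in opposite directions. LAMP1 (chr13:113297239-113323672) was at 49.4 and 49.8 FPKM in control and 33.9 and 35.5 FPKM in knockdown libraries (log2 fold change -0.50, SE 0.057, adjusted p = 0.00287). LAMP2 (chrX:120426148-120469349) was at 36.5 and 36.0 FPKM in control and 49.0 and 50.5 FPKM in knockdown libraries (log2 fold change 0.45, SE 0.056, adjusted p = 0.00401). Neither gene's groups overlapped, and LAMP1 was the higher of the pair in every control library and the lower in every knockdown library. The LAMP2B form, NM_013995, took 90.4% to 93.2% of the total, at 34.1, 33.1, 44.3 and 45.9 FPKM, and LAMP2A, NM_002294, the receptor of chaperone-mediated autophagy, was at 2.48, 2.93, 4.71 and 4.65 FPKM. Each form was higher in both knockdown libraries than in both controls.

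SCARB2 (LIMP-2, the carrier of glucocerebrosidase) was at 3.94 and 4.24 FPKM in control and 5.16 and 5.49 FPKM in knockdown libraries (log2 fold change 0.31, adjusted p = 0.0379). CLN3, a membrane protein whose loss causes juvenile neuronal ceroid lipofuscinosis, was at 12.7 and 12.7 FPKM in control cells and at 16.4 and 15.3 FPKM in knockdown cells (log2 fold change 0.30, adjusted p = 0.0233). Both rose without overlap, an absence that 64.8% of all genes tested shared, but neither call held in any of the 4 fits without 1 library. Log2 fold changes in those fits ran from 0.27 to 0.35 for SCARB2 and from 0.25 to 0.34 for CLN3. The CLN3 total was also divided unevenly between its transcripts within a group, with NM_001042432 at 6.44, 1.55, 11.9 and 6.13 FPKM and NM_000086 at 4.99, 7.71, 2.37 and 6.95 FPKM. The calcium channel MCOLN1 (log2 fold change 0.16, adjusted p = 0.168) and the cholesterol exporter NPC1 (0.12, adjusted p = 0.283) were not called.

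**Figure D4:**
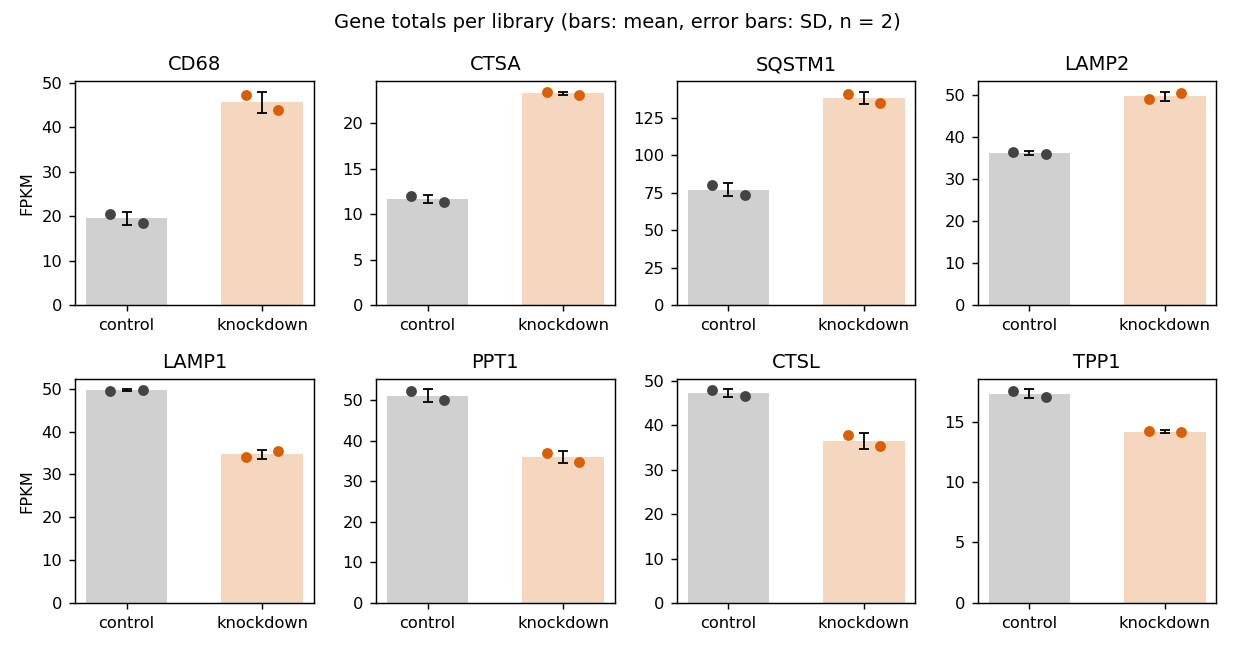
FPKM of gene totals in each library (points) with group means (bars) and SD (error bars, n = 2) for CD68 and other lysosomal genes; each panel has its own axis from 0. CD68 goes from 18.5 and 20.6 to 43.9 and 47.3 FPKM, and LAMP1 and LAMP2 exchange their order.

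The proteases divided, with 2 higher, 2 lower and 5 not called of the 9 tested. Over all genes tested, 10.9% were called higher and 9.99% lower. CTSA, a serine carboxypeptidase that also shields beta-galactosidase and neuraminidase in a complex, was at 11.99 and 11.3 FPKM in control and 23.4 and 23.1 FPKM in knockdown libraries. The groups were far apart (log2 fold change 0.94, SE 0.063, adjusted p = 0.000781). Its main transcript, NM_000308, went from 10.1 and 8.87 to 22.3 and 22.0 FPKM, whereas NM_001127695 was at 1.68, 2.07, 0.791 and 1.04 FPKM, lower in both knockdown libraries. Of the partners of CTSA, GLB1 (beta-galactosidase) rose (described with the glycosidases) and NEU1 (neuraminidase) was not called (log2 fold change 0.06, adjusted p = 0.694).

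CTSB (cathepsin B, a cysteine protease) was at 39.0 and 34.7 FPKM in control and 45.9 and 43.1 FPKM in knockdown libraries (log2 fold change 0.27, adjusted p = 0.0473). CTSL, also a cysteine protease, went the other way, from 47.9 and 46.7 to 37.8 and 35.3 FPKM (log2 fold change -0.36, SE 0.062, adjusted p = 0.0103). TPP1, a tripeptidyl peptidase, was at 17.6 and 17.03 FPKM in control and 14.2 and 14.1 FPKM in knockdown libraries (log2 fold change -0.27, adjusted p = 0.025). The groups did not overlap for any of these 3 genes, nor for 64.8% of all genes tested. CTSL lost its call without knockdown 2 (adjusted p = 0.0795), CTSB in all fits except that without control 1 (up to 0.233), and TPP1 in all except that without control 2 (up to 0.118). The other cathepsins were not called: CTSC had a log2 fold change of 0.16, CTSH of 0.14, CTSD of -0.02, CTSZ of -0.06 and CTSS of -0.15, with adjusted p-values from 0.0985 to 0.874. Single libraries moved some of these: CTSH was at 0.032 without knockdown 1 and 0.26 without knockdown 2, and CTSS at -0.037 and -0.27 in the same fits. LGMN, an asparaginyl endopeptidase, was under the filter at 0.306, 0.214, 0.225 and 0.28 FPKM and was not tested.

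Of the 9 glycosidases, which trim sugars from glycans and glycolipids, 3 were called higher and 0 lower in limma, with 4 higher and 0 lower at an unadjusted p under 0.05. The shares called over all genes tested were 10.9% higher and 9.99% lower. IDUA, which cleaves iduronic acid from glycosaminoglycans, was at 1.60 and 1.78 FPKM in control and 2.53 and 2.86 FPKM in knockdown libraries (log2 fold change 0.45, SE 0.104, adjusted p = 0.0255). Its coding transcript NM_000203 was at 0.057, 0.478, 1.56 and 2.85 FPKM and the non-coding NR_110313 at 1.55, 1.31, 0.967 and 0.001 FPKM, so that the 2 libraries of each group differed widely in how the total was divided. GLA (alpha-galactosidase A) was at 27.9 and 28.3 FPKM in control and 33.1 and 34.9 FPKM in knockdown libraries (log2 fold change 0.26, adjusted p = 0.0249). GLB1 went from 21.8 and 20.6 to 25.6 and 25.2 FPKM (log2 fold change 0.25, adjusted p = 0.0307). The groups of all 3 genes were apart, as were those of 64.8% of all genes tested. Each call held in 1 of the 4 fits without a library: IDUA and GLA only without control 2, GLB1 only without control 1. GAA, which degrades glycogen, was at 4.18, 3.098, 4.81 and 5.58 FPKM and missed the threshold (log2 fold change 0.43, SE 0.129, adjusted p = 0.0592). Its log2 fold change was 0.59 without control 1, where it was called (adjusted p = 0.0209), and 0.26 without control 2, where it was not (adjusted p = 0.193). NEU1, MAN2B1, GUSB, HEXA and NAGLU had log2 fold changes from -0.15 to 0.06 and were not called.

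The 5 sulfatases remove sulfate groups from glycosaminoglycans and sulfolipids and were all under 4 FPKM. ARSB rose, from 2.70 and 2.53 to 3.33 and 3.98 FPKM (log2 fold change 0.36, SE 0.102, adjusted p = 0.0486), a call that held in none of the 4 fits without a library (adjusted p = 0.065 to 0.209). ARSA was at 0.949 and 0.889 FPKM in control and 1.56 and 1.47 FPKM in knockdown libraries and was just outside the threshold (log2 fold change 0.39, adjusted p = 0.0514). GALNS (0.33), IDS (0.19) and SGSH (-0.10 on the same scale) were not called. No sulfatase was called lower in limma, nor was any lower at an unadjusted p under 0.05 (0 of 5). Over all genes tested, 10.9% were called higher and 9.99% lower.

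Among the lipid-handling proteins, 2 of the 5 tested rose and 1 fell, beside 10.9% called higher and 9.99% called lower of all genes tested. ASAH1 (acid ceramidase) was at 25.6 and 25.3 FPKM in control and 31.7 and 32.1 FPKM in knockdown libraries (log2 fold change 0.32, SE 0.057, adjusted p = 0.0122). SMPD1 (acid sphingomyelinase), which makes the ceramide that ASAH1 cleaves, was at 3.40 and 3.80 FPKM in control and 4.89 and 4.52 FPKM in knockdown libraries (log2 fold change 0.31, adjusted p = 0.0492). PPT1 (palmitoyl-protein thioesterase, chr1:40071461-40097252) was at 52.3 and 50.1 FPKM in control and 37.0 and 34.9 FPKM in knockdown libraries (log2 fold change -0.50, SE 0.061, adjusted p = 0.0037). No overlap was seen in any of the 3, nor in 64.8% of all genes tested. The call on ASAH1 was lost without knockdown 1 or knockdown 2 (up to an adjusted p of 0.0793), and that on SMPD1 in each of the 4 fits without a library (0.068 to 0.206). PSAP, the precursor of the saposins, was the most abundant of the 41 genes in both control libraries (SQSTM1 was above it in both knockdown libraries) and was not called, at 152, 135, 132 and 129 FPKM (log2 fold change -0.14, adjusted p = 0.207). It was at -0.053 without control 1 and -0.22 without control 2, and was called lower with all columns scaled to one sum (-0.16, adjusted p = 0.0383). NPC2, which hands cholesterol to NPC1, was not called either (0.19, adjusted p = 0.103), and LIPA, the acid lipase, was listed at 0.036, 0, 0 and 0.0206 FPKM and not tested.

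Progranulin (GRN), a secreted and lysosomal glycoprotein that is cleaved into granulins, was at 29.9 and 26.3 FPKM in control and 36.2 and 34.4 FPKM in knockdown libraries. It was higher in both knockdown libraries (log2 fold change 0.32, SE 0.076, adjusted p = 0.029), and the call held without control 1 and in none of the other 3 fits (adjusted p up to 0.151).

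SQSTM1 (chr5:179806393-179838078), the receptor that carries ubiquitinated cargo into autophagosomes and is itself degraded in lysosomes, was at 79.9 and 73.8 FPKM in control and 141 and 135 FPKM in knockdown libraries. The groups lay far apart (log2 fold change 0.84, SE 0.064, adjusted p = 0.000998). Its main transcript NM_003900 went from 73.6 and 66.9 to 137 and 129 FPKM, while NM_001142298 was at 5.55, 4.91, 4.30 and 2.98 FPKM. TFEB was at 0.99 and 1.09 FPKM in control and 0.892 and 0.662 FPKM in knockdown libraries, a mean under the filter, and was not tested. TFE3 was at 10.3, 8.90, 11.0 and 11.0 FPKM and was not called (log2 fold change 0.18, SE 0.083, adjusted p = 0.167), with 0.28 without control 1 and 0.082 without control 2. Its transcripts differed: NM_006521 was at 8.05, 8.08, 7.44 and 7.32 FPKM and NM_001282142 at 2.28, 0.824, 3.56 and 3.67 FPKM. MITF, the relative of both, was at 5.69, 5.23, 4.11 and 4.63 FPKM and was not called (log2 fold change -0.27, adjusted p = 0.0741).

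The summed level of the 41 genes was 984 and 922 FPKM in control and 1083 and 1053 FPKM in knockdown libraries, which is 0.269%, 0.267%, 0.296% and 0.296% of each library's total over genes with a symbol. Both knockdown libraries were above both controls on either scale. Without CD68 and SQSTM1, left out after their values were seen, the sums were 884 and 830 FPKM in control and 895 and 874 FPKM in knockdown libraries, and these overlap. As shares of the total they were 0.241%, 0.240%, 0.244% and 0.246%, which do not overlap.

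Other genes of the pathway were read from 6 lists with 124 genes, also chosen with earlier results known, of which 110 were tested. Of these, 31 (28.2%) were called, 23 higher and 8 lower, with a median log2 fold change of 0.059, beside 20.9% of all genes tested (10.9% higher and 9.99% lower). The share called was 20.8% for other membrane proteins and 18.8% for nutrient sensing, no higher than that of all genes. Over the 6 lists the number called was 27 without control 1, 17 without control 2, 6 without knockdown 1 and 9 without knockdown 2, as the share of all genes called fell to 17.6%, 14.7%, 7.52% and 7.64%. Up to 3 of the highest and 3 of the lowest called genes of each list are named.

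Among 24 other hydrolases and activators tested, 7 were higher and 0 lower in limma (11 and 2 at an unadjusted p under 0.05). The highest were PLBD2, a phospholipase B-like protein (log2 fold change 0.65, adjusted p = 0.0044), and ACP2, lysosomal acid phosphatase (0.51, adjusted p = 0.0126). Of 24 other membrane proteins and transporters, 4 were higher and 1 lower. LAPTM4A went from 20.7 and 21.3 to 39.5 and 38.4 FPKM (log2 fold change 0.86, SE 0.058, adjusted p = 0.000781), and the sialomucin CD164 from 86.4 and 87.0 to 132 and 133 FPKM (0.61, adjusted p = 0.00136). SLC36A1, an amino acid transporter, was higher (0.41, adjusted p = 0.0277) and TMEM192 lower (-0.33, adjusted p = 0.0233).

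Of 17 subunits of the proton pump tested, 4 were higher and 2 lower. Those higher included ATP6V0C (log2 fold change 0.33), ATP6AP1 (0.30) and TCIRG1 (0.29), with adjusted p-values from 0.0226 to 0.0251, and those lower were ATP6V1D (-0.40, adjusted p = 0.00872) and ATP6V0A1 (-0.21, adjusted p = 0.0487). Of 11 genes of mannose 6-phosphate tagging and sorting, both receptors rose, M6PR (0.43, adjusted p = 0.00832) and IGF2R (0.33, adjusted p = 0.0137), as did the sorting receptor SORT1 (0.28, adjusted p = 0.0233), while the adaptor subunit AP1G1 fell (-0.44, adjusted p = 0.00892).

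Of 16 genes of nutrient sensing and TFE regulation tested, 2 were higher, FNIP1 (log2 fold change 0.37, adjusted p = 0.0192) and RRAGB (0.33, adjusted p = 0.0431), and 1 was lower, YWHAG (-0.21, adjusted p = 0.0418). Of 18 genes tested from the autophagy list, which also holds KEAP1, NFE2L2 and NQO1, 3 were higher and 3 lower. Those higher were NQO1, a target of NRF2 (0.34, adjusted p = 0.0189), the initiating kinase ULK1 (0.27, adjusted p = 0.0408) and NFE2L2, which encodes NRF2 (0.26, adjusted p = 0.0233). Those lower were WIPI2 (-0.46, adjusted p = 0.00561), ATG9A (-0.31, adjusted p = 0.0266) and WIPI1 (-0.30, adjusted p = 0.037), which act in forming the autophagosome.

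**Figure D5:**
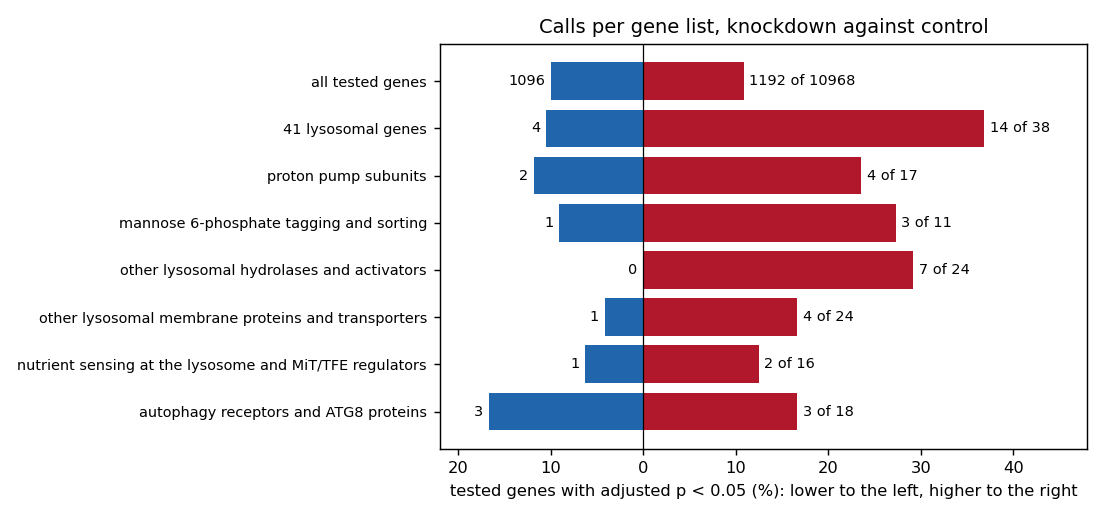
Share (%) of tested genes called higher (right) and lower (left) at an adjusted p under 0.05 for the lysosomal genes, the pathway lists and all genes tested. The lysosomal genes have 14 higher and 4 lower of 38, and all genes have 10.9% higher and 9.99% lower. All lists were chosen with earlier results of these data known.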

How the data were processed

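RNA was measured by RNA-seq in 2 control and 2 CEBPG knockdown libraries of NB4, grouped by the labels. The authors deposited FPKM values for 29265 RefSeq transcripts, 1 column per library. Per the labels, libraries were made with an Illumina TruSeq kit, and the submitters' processing notes name HISAT2 2.0.5 and hg38. The quantifier and annotation release are not given in the sources used here, and the study's own test was DESeq2. Of the entries, 183 held no value and 164 no gene symbol. Low values of 2798 genes showed no steps of whole reads (the most common ratio made up 1.14%), so no count test was run, depth is unknown and no counting interval can be given. FPKM is scaled to each library's total, so a change in abundant transcripts such as globins shifts all other values.

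Transcripts were summed per symbol, symbols under a mean of 1 FPKM were left out, and log2(FPKM + 1) was compared with limma 3.58.1 under R 4.3.3 (trended empirical Bayes, 2-sided, Benjamini-Hochberg adjustment over all 10968 genes). The procedure was tested on simulated data. Positions came from GENCODE and RefSeq on GRCh38, where all 41 genes were matched, and promoter sequences from a RefSeq table. Library values were set by rule for CD68, LAMP1, LAMP2, SQSTM1, TFEB, TFE3, every called gene of the 41 and those under the filter, and of each pathway list the 3 highest and 3 lowest called were to be named. Library values of GAA, ARSA, PSAP, MITF, LAPTM4A, CD164, LYZ, SOX15 and ATP1B2 were added after their values were seen. Members and lists were chosen with earlier results of these data known. Alternatives were the pseudocount, the filter, 2 scalings, the moderation, a replicate block, tests of single transcripts, and fits leaving out 1 library. Genes of the lists that had no row were not analysed here, and a few genes the naming rule covers are not reported here.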

Additional observations from a re-analysis of the deposited data

How the results depend on the processing

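The 18 called genes kept their sign in every alternative at the gene level in which they were tested (SCARB2, IDUA, ARSB and SMPD1 were not at a mean of at least 5 FPKM), and CD68, LAMP1, LAMP2, CTSA, PPT1 and SQSTM1 were called in all of them. CD68 ran from 1.11 to 1.25 with adjusted p from 9.81e-07 to 0.0231. Without a filter on low values, 8 of 41 lysosomal genes were called (5 higher), as were 10 genes of the pathway lists, with 882 of 16504 genes called (5.34%). With the most abundant transcript of each gene in place of its total, 16 of 10751 were called. Among them was 1 lysosomal gene, CD68 (1 higher, 0 lower in limma, 11 and 4 at an unadjusted p under 0.05), and GUSB (-0.13) and TFE3 (-0.11) changed sign, neither being called in either fit. The main transcripts had lower means in knockdown, GUSB NM_000181 at 24.2 against 21.9 FPKM and TFE3 NM_006521 at 8.07 against 7.38 FPKM. Gene totals also include transcripts with higher means in knockdown. Among these were GUSB NR_120531 (3.43 against 5.14 FPKM) and TFE3 NM_001282142 (1.55 against 3.62 FPKM). Why the transcripts differed was not tested. Leaving out 1 library gave 6 to 12 calls, 4 to 9 higher and 2 to 4 lower, and 6 to 27 for the pathway lists, while 7.52% to 17.6% of all genes were called. In those fits CTSD (-0.15 to 0.099), HEXA (-0.12 to 0.079), SGSH (-0.23 to 0.031), GUSB (-0.047 to 0.10), MAN2B1 (-0.0031 to 0.089) and NEU1 (-0.053 to 0.18), none of them called, changed sign. NPC1 (0.060 to 0.17), CTSZ (-0.11 to -0.0061), GALNS (0.17 to 0.49) and IDS (0.096 to 0.28) moved by over 1.5 times and stayed uncalled.

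Whether the replicate numbers mark a batch or a pairing is not stated in the sources used here. Deviations of same-numbered libraries correlated at r = 0.0983, which with 2 libraries a group cannot decide this. A replicate block gave 21 calls (17 higher, 4 lower), with ARSA, CTSC and GAA added and all 18 kept, while all genes went from 2288 to 3440 calls (31.4%). Median-ratio scaling gave 18 calls, 17 of them among the original 18, with SMPD1 lost and ARSA gained. Scaling to one sum gave 18 calls, 15 of them original, with ARSB, SCARB2 and SMPD1 lost and ARSA, CTSC and PSAP gained. The share of all genes called rose from 20.9% to 24.5% and 24.4%. Moderation without a trend gave 15 calls, with 17.2% of all genes called. It lost CTSB, GLA, GLB1 and GRN and gained ARSA. Over lysosomal genes and alternatives, 354 values kept direction and side of the threshold, 72 lost their call, 9 gained one and 10 changed sign. With 2 libraries a group and 2 residual degrees of freedom, small changes are the least certain, and without counts the precision of low genes cannot be separated from depth.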

Other observations

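CD68 lies in a dense stretch of chromosome 17, and tested genes around it gave values that belong to no comparison above. EIF4A1, the nearest with 631 bases between, had a log2 fold change of 0.026 and MPDU1, at 1535 bases, of -0.16, and neither was called. SOX15, a transcription factor 6066 bases away, was at 6.39 and 4.88 FPKM in control and 11.3 and 11.0 FPKM in knockdown libraries (log2 fold change 0.88, adjusted p = 0.00402). SOX15 and MPDU1 overlap by 35 bases on opposite strands, and the counting is not stated to use strand, so their values are uncertain. SENP3 (-0.047), FXR2 (0.073) and SAT2 (-0.077) were not called. ATP1B2, a sodium pump subunit, was at 2.58 and 2.86 FPKM in control and 0.761 and 0.778 FPKM in knockdown libraries (log2 fold change -1.07, adjusted p = 0.00199). It passed the filter only through the control libraries, where it is high, and lies farther off, 64515 bases from CD68.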
